A study of Homo sapiens with 6 samples.

Results

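Other-exon peaks are m6A peaks in an exon that name 2 genes at once: the gene the authors assigned the peak to and a different gene, here the exon gene, whose exon their annotation says the peak lies in. They were taken as every row of both deposited peak tables whose annotation starts with Exon and carries an Ensembl gene ID other than that of the assigned gene. The peak list, immunoprecipitate (IP) against input, held 2923 such rows among 14643 exon rows (95% Clopper-Pearson interval of the share 19.3% to 20.6%) and 42634 rows in all. The differential list held 1086 among 5484 exon rows (19.8%) and 19983 rows in all. The 2923 rows of the peak list joined 1857 assigned genes to 1967 exon genes in 2051 pairs, and the 1086 rows of the differential list joined 836 to 845 in 877 pairs. The remaining 11720 and 4398 exon rows, whose exon belongs to the assigned gene itself, are called own-exon peaks.

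The cells were Kasumi-1, an established line of human acute myeloblastic leukaemia cells with the RUNX1::RUNX1T1 fusion, labelled WT in genotype. All 6 libraries came from cells given 100 uM CoCl2, which stabilises hypoxia-inducible factors, together with 10 nM echinomycin, which blocks HIF-1 from binding DNA, for 24 h: 3 numbered replicates, each with 1 IP and 1 input library of poly(A) RNA. The labels do not say whether the replicates were separate cultures, so their spread may be technical. The differential list sets this combined treatment against CoCl2 alone, a group with no library among the 6. The labels do not state its direction, which was read from the order in which the table's name lists both conditions, so a positive log2 fold change is taken as higher with echinomycin added. One measurement bears on it: of changed other-exon peaks at a log2 fold change of 2 or more in the authors' deposited table, 18 of 18 overlapped a peak called in the combined treatment, against 22 of 38 at -2 or less. Whole spans were overlapped, introns included, with a peak of any gene. The rows are not all separate places: ATR rows at 2.73 and 2.60 in the authors' deposited table overlap each other. Per-sample IP values were not used here, so fold enrichment and fold change are 1 value per peak with no replicate error, and the read depth behind them is not known. No source used here names the genome build. Input FPKM, a level scaled to transcript length and library size, reached 1 or more for 12495 to 12836 genes per input library. Of 10 myeloid markers, 8 had a mean of at least 1 FPKM (MPO, CD34, KIT, CD33, SPI1, CEBPA, RUNX1 and RUNX1T1), and ELANE and PRTN3 were below it. The summed level of all 10 was 173 to 191 FPKM per library. Among markers of other cell types, CD3D and EPCAM passed 1 FPKM, with list sums of 30.6 to 35.6 FPKM for 4 lymphoid genes and 9.25 to 10.3 FPKM for 3 epithelial genes. Erythroid HBA1, fibroblast COL1A1 and hepatic ALB stayed below it, and the part of such cells in any result was not tested.

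N6-methyladenosine (m6A) is placed on nascent RNA by a methyltransferase complex with METTL3 as its catalytic subunit, favours a short motif around GGAC, and is read by proteins that direct splicing, export, translation and decay. MeRIP-seq pulls down RNA fragments with an antibody to m6A and compares them with the input, so its unit is a stretch of genome that may belong to more than one transcript. Such stretches are common in the human genome: antisense transcripts cross the exons or introns of coding genes, divergent transcripts start back to back with them, processed pseudogenes sit in introns of unrelated genes, and microRNA hairpins lie inside exons or introns of longer host transcripts. METTL3 also marks primary microRNAs, which favours their processing by the DGCR8 and DROSHA complex. At other-exon peaks the question is which of the overlapping RNAs was measured.

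The clearest case for reading the sequence itself is the microRNAs, where the assigned gene is a hairpin and the exon belongs to its host. RefSeq (GRCh38.p14) held hairpins for 23 of the 28 microRNA genes to which an other-exon peak was assigned, all 23 of the length in the deposited tables. Mature sequences are shown for 5 of them, chosen after their values were seen because their peaks carry the results below; capitals mark the seed, bases 2 to 8, which pairs with target RNAs.
hsa-miR-142-5p: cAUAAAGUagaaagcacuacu
hsa-miR-142-3p: uGUAGUGUuuccuacuuuaugga
hsa-miR-223-5p: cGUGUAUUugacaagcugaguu
hsa-miR-223-3p: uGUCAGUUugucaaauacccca
hsa-miR-210-5p: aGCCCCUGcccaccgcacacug
hsa-miR-210-3p: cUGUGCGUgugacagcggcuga
hsa-let-7i-5p: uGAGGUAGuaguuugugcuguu
hsa-miR-671-5p: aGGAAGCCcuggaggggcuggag

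RefSeq held mature sequences for 27 of the 28 genes, including some without a matched hairpin: 48 sequences with 46 different seeds. Both seeds held by more than 1 gene belong to MIR550A2 and MIR550A3, near-identical copies. Their peaks lay in exons of ZNRF2P1 and of an unnamed gene, with fold enrichments of 11.1 and 17.0, and reads of such copies may be shared.

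Hairpins are shown for MIR142, MIR223 and MIR6501, which lie wholly inside their peaks, and for MIR210, which lies in the gap of its peak; capitals mark GGAC on the RNA strand.
MIR142 hairpin: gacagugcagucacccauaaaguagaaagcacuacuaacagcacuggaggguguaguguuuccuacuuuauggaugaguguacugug
MIR223 hairpin: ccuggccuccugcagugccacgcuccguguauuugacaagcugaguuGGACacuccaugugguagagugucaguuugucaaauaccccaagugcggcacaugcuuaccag
MIR6501 hairpin: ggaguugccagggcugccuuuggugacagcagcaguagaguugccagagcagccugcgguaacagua
MIR210 hairpin: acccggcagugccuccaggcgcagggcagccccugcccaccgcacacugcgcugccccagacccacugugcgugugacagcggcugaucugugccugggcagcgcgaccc

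Only the MIR223 hairpin of these 4 holds GGAC, between its arms. Over the 23 matched hairpins 3 held GGAC, against 426 of all 1560 RefSeq hairpins (27.3%). No genome of the files' build was used, so the rest of each peak could not be searched.

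MicroRNA genes were the assigned gene of 30 other-exon peaks of the peak list. In 24 of the 30 the exon gene ran on the same strand, as a host transcript does. Only 9 peaks covered the whole hairpin and 15 held no hairpin base in their blocks, the stretches of exon a peak is built from. The largest fold enrichment was at MIR142, the haematopoietic microRNA of chromosome 17, at 51.0 for a single block (chr17:58330884-58332478) in the single-exon gene AC004687 (ENSG00000265206). Input FPKM of AC004687 was 16.7, 19.0 and 14.4 in the 3 replicates, and that of MIR142 0.0168, 0.0112 and 0.0122. As listed, FPKM of the longer gene was thus far above that of the hairpin gene in every replicate. No source used here says how reads over a hairpin were divided between both genes. The FPKM of a hairpin inside an exon is therefore not read as the level of its microRNA, here or below. MIR223, a microRNA of granulocyte differentiation, had a peak equal to its 110-base hairpin (chrX:66018870-66018979), with a fold enrichment of 3.10 in the last exon of MIR223HG. MIR223HG stood at 1.49, 2.12 and 1.57 FPKM and MIR223 at 0.00563, 0.00566 and 0.00491.

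Of the 7 peaks equal to a hairpin, the strongest by FDR was MIR671 in the last exon of CHPF2 (chr7:151238421-151238538, fold enrichment 3.18). CHPF2, a chondroitin-synthesis enzyme, was at 18.7 ± 0.251 FPKM (SD, n = 3). MIR6501 in exon 3 of SON, a nuclear speckle splicing factor at 44.4 ± 1.35 FPKM, had 2 rows, one as the 67-base hairpin (fold enrichment 1.80, FDR limit not passed) and one as a peak of 3 blocks through the exon (5.63). MIR210 and let-7i stood differently. MIR210, the microRNA best known as a HIF target, lay in the gap between both blocks of a peak on its host MIR210HG (chr11:566850-568457, fold enrichment 8.58). MIR210HG was at 21.7, 21.8 and 20.1 FPKM, well above MIR210 at 3.58, 2.68 and 3.22. MIRLET7I lay in the gap of a peak on AC048341 with a fold enrichment of 7.84, and no hairpin base was in its blocks either.

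**Figure D1:**
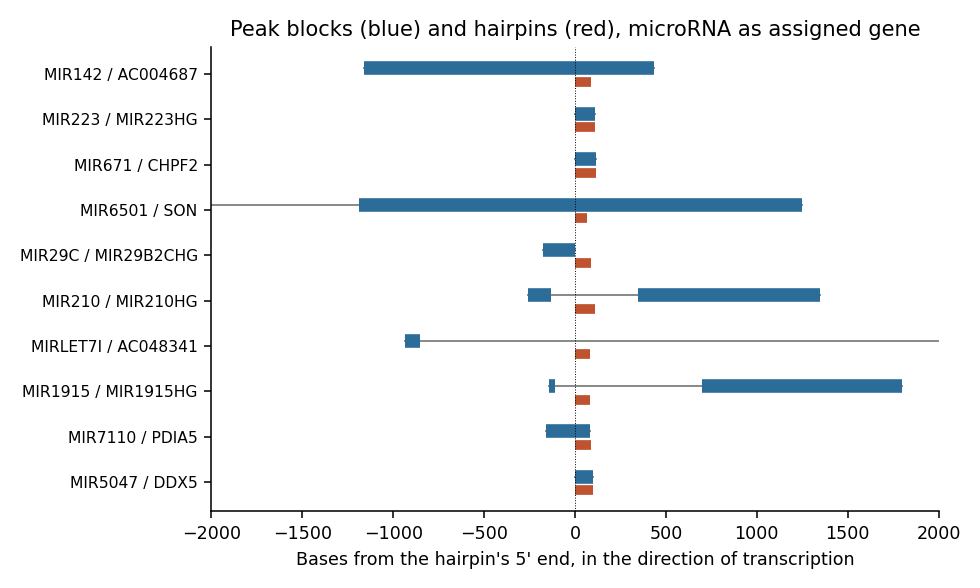
Blocks of 10 peaks of the peak list whose assigned gene is a microRNA (blue, joined by a grey line) and the hairpin (red), in bases from the hairpin's 5′ end in the direction of transcription; lines run on beyond the axis limits. The MIR142 block holds its hairpin, the MIR223, MIR671 and MIR5047 blocks equal theirs, and the blocks of MIR210, MIRLET7I and MIR1915 leave theirs out.

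In the differential list 14 other-exon peaks carried a microRNA gene, and 9 of them changed at an FDR under 0.05 in the authors' deposited table, 7 lower and 2 higher. Over all 19983 peaks of that list 68.9% changed. The peak on MIR210HG (chr11:565660-568457) fell by 0.94 on the log2 scale in the authors' deposited table, with a log10 FDR of -208. The peak beside let-7i fell by 0.83 and the one equal to the MIR671 hairpin by 0.81, while that over MIR6501 and SON fell by 0.37, all in the authors' deposited table. MIR4677, in the gap of a peak on SDCCAG8, was one of those that rose, by 1.14 on the log2 scale in the authors' deposited table. The peak on MIR181A2HG had a value of -0.39 in the authors' deposited table and missed the FDR limit. Among the 7 that fell, the hairpin was inside the blocks only for MIR671 and MIR6501.

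Over all other-exon peaks, the exon gene most often ran against the assigned gene. The deposited tables give both strands for 2721 of the 2923 rows, and 1798 of these (66.1%, interval 64.3% to 67.9%) joined genes of opposite strand. In the differential list it was 661 of 1026 (64.4%). The strands were not used evenly: the exon gene was on the plus strand and the assigned gene on the minus strand in 1270 of the 1798, and the reverse held in 528. By name, 426 rows had an exon gene with an antisense, intronic, overlapping or divergent suffix, such as PITRM1-AS1, and 1329 a clone name such as AC109992. Read-through-type names, which here include pairs such as SAP30 with SAP30-DT, made up 43 rows and names of one family stem 49. RefSeq gave a gene type by symbol for 1330 exon genes' rows, of which 570 were long non-coding RNAs, 415 protein coding, and 339 pseudogenes, transcribed ones included. Of 2348 rows with a typed assigned gene, 1900 were protein coding. In 202 rows both genes bore the same name under different IDs.

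The order of the rows gave a further view. Each chromosome is listed in 2 ascending passes, and in the first pass all 5921 own-exon peaks belonged to plus-strand genes, against 345 of 5775 (5.97%) in the second. No source used here says what the passes stand for. Among the 1798 opposite-strand other-exon peaks the pass ran with the strand of the exon gene in 1489 (82.8%, interval 81.0% to 84.5%) and with that of the assigned gene in 309 (17.2%). These shares pool both passes. Every first-pass other-exon peak of known strand had a plus-strand exon gene (1472 of 1472), so all 309 lay in the second pass. In that pass 332 of 1243 other-exon peaks of known strand had a plus-strand exon gene. In the differential list the exon gene's strand was met in 519 of 661 (78.5%). Peaks annotated to the 3′ UTR lay against the pass of their assigned gene in 10.5% and 5′ UTR peaks in 13.5%, so the pattern was not limited to exons.

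**Figure D2:**
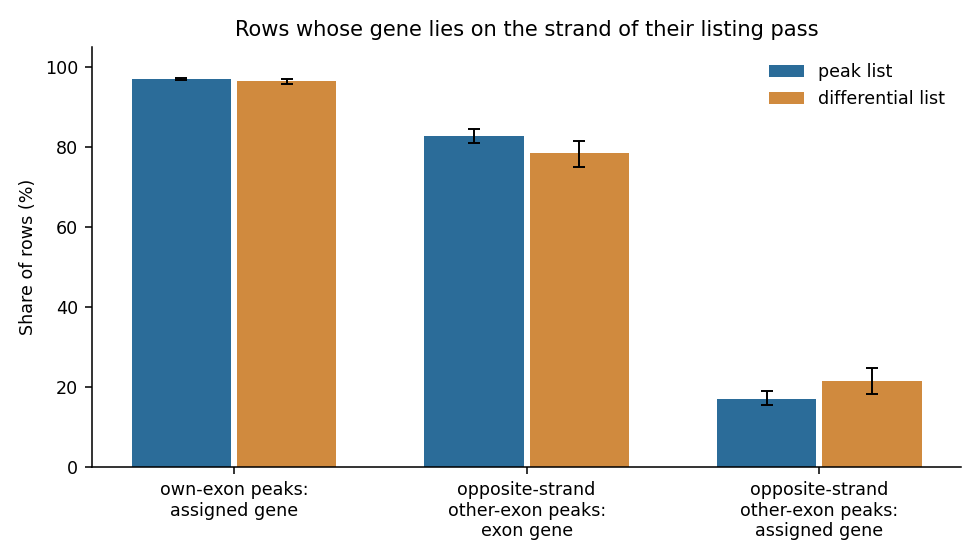
Share of rows (%) whose assigned gene or exon gene lies on the strand that its listing pass tracks, for own-exon peaks and opposite-strand other-exon peaks of both lists; error bars are 95% Clopper-Pearson intervals over rows. Opposite-strand other-exon peaks run with the exon gene in 82.8% (peak list) and 78.5% (differential list) of rows, both passes pooled. All rows that run against it lie in the second pass.

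Some places were listed in both passes. Pairs were counted where an other-exon peak and a row of the opposite pass shared at least 50% of their exonic bases. In the peak list there were 148 pairs, with both rows assigned to the same gene in 122. The higher fold enrichment of a pair exceeded the lower by a median of 1.05 times. In the differential list all 55 such pairs had the same sign, and their log2 fold changes, taken from the authors' deposited table, differed by a median of 0.08. ATR, the kinase of the replication stress checkpoint, is an example: its place in AC109992 (ENSG00000242479) was listed as chr3:142451348-142451556 at 2.73 and as chr3:142451376-142451556 at 2.60 in the authors' deposited table. The library protocol marks the second cDNA strand with dUTP, but no source used here says whether peak calling used strand. Not every such pair was close: fold enrichments lay within 1.25-fold in 118 of the 148 pairs, and log2 fold changes within 0.25 in 44 of the 55 pairs of the authors' deposited table.

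The 2 genes also overlapped as annotated. Of 2682 rows whose exon gene has bounds in the FPKM table, 2131 (79.5%) lay inside both genes. Other-exon peaks fell less often in middle exons than own-exon peaks did (527 of 2923 against 4122 of 11720) and more often in the last of several exons (39.4% against 26.6%) or in a gene model of 1 exon (29.0% against 18.6%). The median exonic length was 271 bases in both. They lay a median of 11675 bases from the start of the assigned transcript, against 3224.5 for own-exon peaks. Only 201 of the 2923 (6.88%) had a row assigned to the exon gene at an overlapping position, so most exon genes were named there by the annotation only.

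The fold enrichment of other-exon peaks had a median of 5.06 (interval over rows 4.82 to 5.19; these intervals and those of shares cover the rows as counted, not replicate error). Own-exon peaks had a median of 4.66 and all 42634 peaks 4.53. An FDR under 0.05 was reached by 2274 of the 2923 (77.8%), against 87.4% of all peaks and 81.3% of own-exon peaks. Same-strand rows had a median of 5.28, opposite-strand rows 4.72, and rows whose exon gene the tables do not name 6.52, with FDR limits passed by 77.8%, 78.7% and 69.8%. The group with the highest median was thus the one that passed least often. Rows with a read-through-type name had the lowest median by name, 3.22 (2.10 to 4.97), over 43 rows. The 339 rows in pseudogene exons ranged from 1.28 to 29.8 with a median of 6.52. The value 6.52 was also that of individual rows such as MIR3675 in BX284668 and MIR577 in UGT8, which missed the FDR limit. An own-exon peak of CENPBD1P1 at 6.52 passed it. Why this value recurred was not tested. Since the read depth behind these values is not known, the medians are not read as a ranking of m6A strength.

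**Figure D3:**
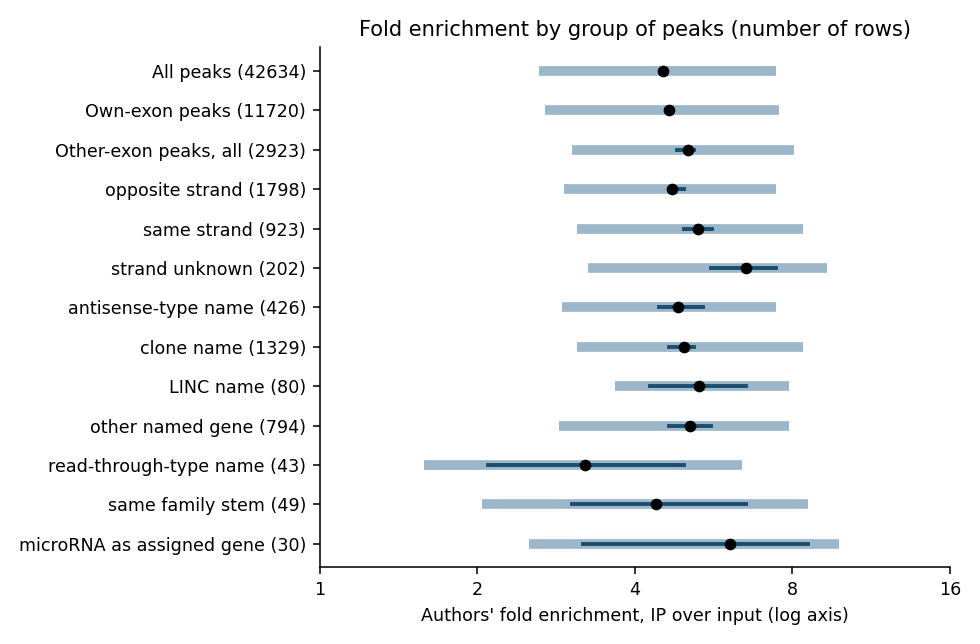
Authors' fold enrichment of IP over input (log axis) for groups of peaks, with the number of rows in brackets: points are medians, dark bars their 95% binomial intervals over rows, pale bars the middle 50%. Most medians lie near the 4.53 of all peaks, with read-through-type names at 3.22 and unknown strand at 6.52. The read depth behind the values is not known.

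Among 757 other-exon peaks with an FDR under 0.05 and either gene at 5 FPKM or more, MIR142 led and BCAT2 followed. BCAT2, the mitochondrial branched-chain aminotransferase, had a fold enrichment of 42.4 at chr19:48810455-48810717 in an exon of ENSG00000286024, a gene the tables do not name. LBX2, a homeobox gene at 13.1, 17.2 and 13.5 FPKM, had 36.6 in AC005041 (ENSG00000272183), which stood at 0.996, 1.52 and 0.675. AAK1, a kinase of clathrin adaptors, shared a peak of 3 blocks with ANXA4 on the other strand at 31.7. Here the exon gene had the higher FPKM, at 5.45 ± 0.134 (SD, n = 3) against 1.52. NUTM2B-AS1 was like MIR142 and AAK1 in this, at 29.8, with AL135925 (ENSG00000272447) at 5.42 ± 0.349 FPKM against 0.668. MBNL1 with MBNL1-AS1 (30.7) and HDAC2 with HDAC2-AS2 (28.9) had antisense genes far below them: MBNL1, a splicing regulator, stood at 9.62 FPKM and MBNL1-AS1 at 0.327, and the deacetylase HDAC2 at 5.29 and HDAC2-AS2 at 0.0365. NOL4L in AL034550 (ENSG00000286311) reached 26.1. SLC30A9 (27.9) and ETFA (25.1), a subunit of the electron transfer flavoprotein, carried the pseudogenes ATP1B1P1 and TYRO3P on their own strand, at 0.233 and 0.268 FPKM. Their reads may be shared with the parent genes elsewhere. Some of these fold enrichments recurred at other places: 31.7 and 30.7 were also those of LRRC37A6P rows in AL160291. Why they recurred was not tested. Since the read depth behind them is not known, their order is not read as one of m6A strength.

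A few genes held many rows. PCDHGA2, of the gamma-protocadherin cluster, where variable exons of many cell-adhesion genes splice to shared constant exons, was assigned 21 peaks in exons of 9 neighbouring cluster genes on the same strand. Their fold enrichments ran from 4.35 to 23.3 with a median of 9.31, the highest in PCDHGA12. PCDHGA2 was at 0.0299, 0.0386 and 0.0111 FPKM, and PCDHGA12, at 0.204, 0.252 and 0.222, had the highest mean of the 9. KHDC1 held 12 peaks in AC019205 (ENSG00000229852; 2.08 to 8.12) and NUMA1, a spindle-pole protein, 9 in AP002490 (ENSG00000251143; 1.19 to 4.77). PAX8-AS1 was the exon gene of 8 peaks, all assigned to PAX8 (1.82 to 6.25). NUMA1 was at 47.4, 47.1 and 45.6 FPKM and AP002490 at 1.41, 1.78 and 1.48, so the assigned gene was far higher in every replicate. At PAX8 the exon gene was the higher: PAX8-AS1 was at 2.53, 2.41 and 2.39 FPKM against 0.434, 0.369 and 0.189 for PAX8, a transcription factor. TTN, the giant muscle protein gene, held 9 peaks in TTN-AS1 (2.56 to 9.08) although TTN was at 0.0147, 0.0186 and 0.0217 FPKM and TTN-AS1 at 0.298, 0.349 and 0.235. TTC28-AS1 held 9 peaks over 3 assigned genes, between 2.09 and 23.3. BRCA1, the homologous recombination gene, held 8: 2 in NBR2, which starts back to back with it, and 6 in AC060780 (ENSG00000267002), with fold enrichments from 1.43 to 7.57.

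Input levels were set side by side for the 1875 of 2250 pairs with both genes in the FPKM table. In 1289 of them either gene had a mean of 1 FPKM or more. The assigned gene was higher in every replicate in 882 pairs (68.4%), the exon gene in 363 (28.2%, interval 25.7% to 30.7%), and neither in 44. A sign-flip over 3 replicates cannot give a 2-sided p below 0.25 for a single pair, so the counts are a description. Median levels were 3.51 FPKM for the assigned gene and 0.944 for the exon gene, and the exon gene was below 1 FPKM in 657 pairs. FPKM is per length, and no source used here says how the authors counted reads where 2 genes overlap.

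Ribosomal protein genes and their copies made up most pairs with the exon gene furthest above. RPS4X was at 736, 728 and 798 FPKM against 3.22, 4.16 and 3.71 for PIN4 on the other strand. DDX5, an RNA helicase, was at 104, 108 and 106 against a listed 0 for MIR5047, whose hairpin is annotated to a DDX5 exon. The limit on read counting where genes overlap applies to it. The pseudogenes RPL9P7, in APOO, and RPL22P1, in MECOM, were at 464 ± 56.1 and 130 ± 2.86 FPKM against 0.474 and 0.00983. They are copies of ribosomal protein genes, so these levels cannot be told apart from reads of the parents. At the other end RPL31 stood at 167, 168 and 180 FPKM and TBC1D8 on the other strand at 1.68, 1.88 and 1.78. EEF1D, a translation elongation factor subunit, exceeded TIGD5, at 49.1 ± 1.34 against 1.25 ± 0.234 FPKM. NUMA1 and AP002490 belonged here too. So did AL713998 (ENSG00000227706), at 70.8 ± 3.41 FPKM, above both exon genes that share its clone name, which had means of 1.81 and 1.97 FPKM.

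**Figure D4:**
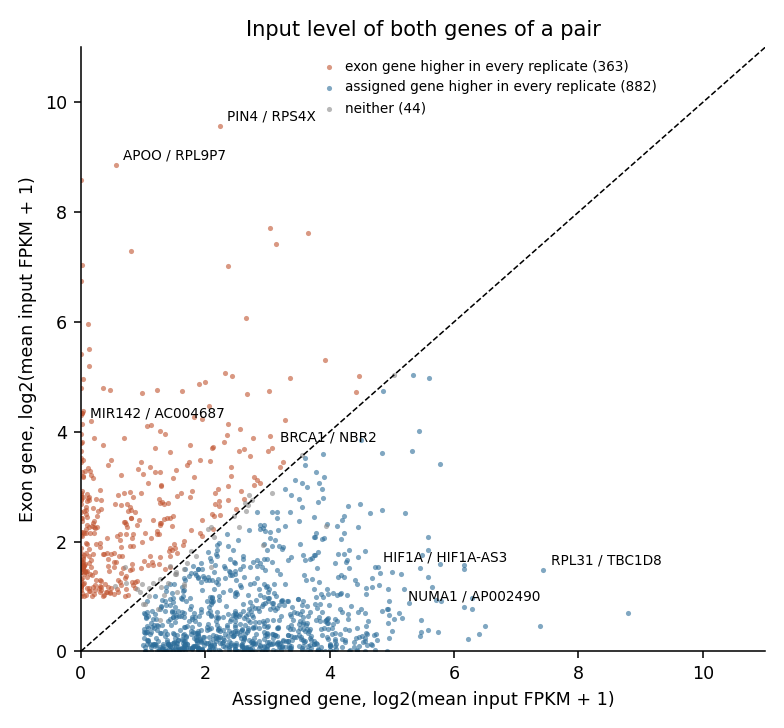
Mean input FPKM of the exon gene against that of the assigned gene, both as log2(FPKM + 1), for 1289 pairs with either gene at 1 FPKM or more; each point is a pair, the dashed line marks equal levels, and colours show which gene was higher in all 3 replicates. The exon gene was higher in 363 pairs and the assigned gene in 882.

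Between the combined treatment and CoCl2 alone, 506 of the 1086 other-exon peaks changed at an FDR under 0.05 in the authors' deposited table (46.6%, against 68.9% of all peaks and 55.0% of own-exon peaks). Of the 506, 347 were lower and 159 higher. The lower ones are 68.6% of the changed rows (interval 64.3% to 72.6%), against 66.4% over all changed peaks; as shares of all rows tested, 45.8% of the whole list fell and 23.1% rose. A change of 2-fold or more was met by 235 rows, 21.6% of the 1086, 167 lower and 68 higher, against 17.2% of the whole list. Among own-exon peaks it was met by 870 of 4398. Taken from the authors' deposited table, log2 fold changes had a median of -0.63 over other-exon peaks and -0.43 over all peaks. In either orientation more rows fell than rose, 206 of 317 changed rows for opposite strands and 124 of 168 for the same strand. Of the 1086, 932 overlapped a peak of the peak list and 817 an other-exon peak of it.

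The assigned gene often had other peaks in the list. Among the 506 changed other-exon peaks, 263 had another changed peak on the assigned gene that was not an other-exon peak. In 115 of the 263 at least 1 of those changed the other way, in 78 all of them. The same count was not made for own-exon peaks, and over the whole list 23.1% of rows rose and 45.8% fell. Opposite directions within a gene are therefore not read as particular to other-exon peaks, here or in the named genes below. The other 243 of the 506 had no such changed peak. Of 8516 genes with a changed peak, 198 (2.33%) had only other-exon peaks among their changed rows, so their place on a list of changed genes rests on an exon annotated to another gene.

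The 10 peaks that rose most, with either gene at 1 FPKM or more, all joined genes of opposite strand, 3 of them with an antisense-type name of the exon gene. AGAP2, a GTPase-activating protein, had 2 of the 10 in the last exon of AGAP2-AS1, chr12:57728176-57728356 at 4.15 and chr12:57727906-57727966 at 3.39 in the authors' deposited table, while both other changed AGAP2 peaks fell. AGAP2 was at 7.59, 8.31 and 7.21 FPKM and AGAP2-AS1 at 2.77, 3.21 and 3.32. In the peak list the same place was listed in both passes, as a block of 631 bases with a fold enrichment of 9.85 and as 150 exonic bases with 1.64. ANKRD11, a chromatin regulator, likewise had 2 rows in AC137932 (ENSG00000268218), at 3.47 and 3.46 in the authors' deposited table, while 3 of its 4 other rows fell and 1 rose. IL16, a cytokine precursor, rose by 3.38 in AC103858 (ENSG00000271725) and CELF2, a splicing regulator, by 2.87 in CELF2-AS1, both in the authors' deposited table and each with 1 other changed peak, which rose too. TPST2, a tyrosine sulfotransferase, had 3.87 in the authors' deposited table at HMGB1P10, a copy of HMGB1 whose reads may come from elsewhere, and its 1 other peak fell. NOL4L had 2.46 in the authors' deposited table and no other row.

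ATR took the last 2 of the 10, the rows at 2.73 and 2.60 described above. Its remaining 3 other-exon rows, at chr3:142450147-142450717, were at 1.73 to 1.76 in the authors' deposited table and missed the FDR limit. All 5 lie in the single-exon gene AC109992, at 0.253, 0.239 and 0.253 FPKM against 1.72, 1.65 and 1.49 for ATR, and the 1 ATR row outside it did not pass.

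Of the 10 peaks that fell most, 5 were assigned to genes with no row outside other-exon peaks. NDUFAF6, a complex I assembly factor, had the lowest value, -6.11 in MIR3150BHG in the authors' deposited table, with a log10 FDR of -1.84, and 2 of its 3 other rows fell too. MIR3150BHG was at 0, 0.0176 and 0.0197 FPKM. PITRM1, the mitochondrial presequence protease, had 2 rows in the last exon of PITRM1-AS1, at -4.03 (chr10:3146710-3146919) and -3.56 (chr10:3145932-3146231) in the authors' deposited table, and no row outside it. PITRM1 was at 17.2, 15.9 and 14.9 FPKM and PITRM1-AS1 at 0.173, 0.126 and 0.184. SP2, a transcription factor, had -3.30 in SP2-AS1 (chr17:47898787-47899115) in the authors' deposited table, with a log10 FDR of -15.7 and no other row. CTU2, which thiolates tRNA, had -3.54 in AC138028 (ENSG00000278341) in the authors' deposited table, while its 1 other peak rose. AZIN1 in AZIN1-AS1 (-3.13) and GINS4, a subunit of the replicative helicase, in AC009630 (ENSG00000253133; -3.12) showed the same opposition in the authors' deposited table: the 1 other row of each rose.

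Among the remaining 3, SMTN had -3.00 in AC005005 (ENSG00000273387) and LINC01518 -4.08 in AL022345 (ENSG00000285884) in the authors' deposited table. APOO, a mitochondrial cristae protein, had -2.93 with a log10 FDR of -27.4 in the authors' deposited table at RPL9P7, the ribosomal protein pseudogene at 508, 400 and 483 FPKM. It was the only one of these 10 on the same strand, and of the 10 only that of LINC01518 shared exonic bases with a row of the same assigned gene in the peak list.

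**Figure D5:**
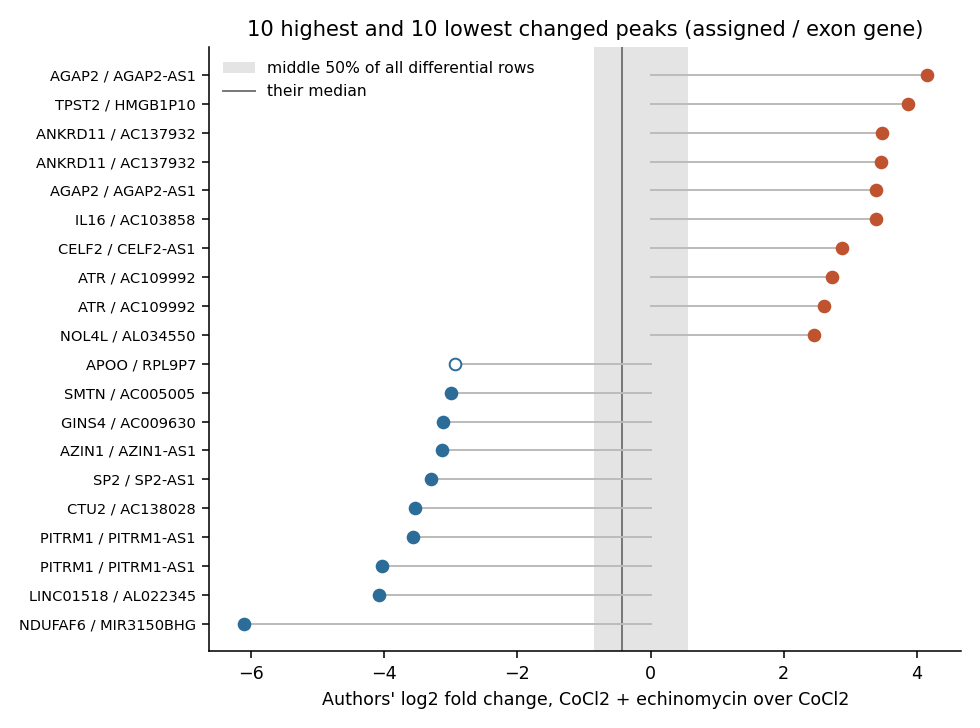
Authors' log2 fold change, read as CoCl2 + echinomycin over CoCl2, of the 10 highest and 10 lowest changed other-exon peaks with either gene at 1 FPKM or more, labelled assigned / exon gene; filled points join genes of opposite strand, the open point genes of the same strand. The grey band is the middle 50% of all differential rows and the line their median of -0.43. Values run from -6.11 (NDUFAF6) to 4.15 (AGAP2).

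Gene lists tied to the treatment are described by their counts, to be read against the whole differential list, of which 68.9% changed, 23.1% higher and 45.8% lower; nothing particular to a list is read from them. The HIF pathway and target list of 42 genes had 3 differential rows, 2 of them changed and lower, near the changed share of the whole list. HIF1A, the oxygen-regulated subunit itself, had 1, a peak of 3 blocks in exon 2 of HIF1A-AS3 (chr14:61707654-61715584) that fell by 0.89 in the authors' deposited table. Its fold enrichment was 6.33, and its other row fell too. HIF1A was at 25.2, 26.4 and 24.8 FPKM and HIF1A-AS3, on the other strand, at 2.08, 1.89 and 1.69. BHLHE40, a HIF-induced repressor at 38.6, 34.3 and 33.5 FPKM, was the exon gene of a peak assigned to BHLHE40-AS1 that fell by 0.59 in the authors' deposited table; BHLHE40-AS1 was at 0.0836, 0.102 and 0.0815.

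The p53 and DNA damage list of 36 genes had 11 rows, 7 of them changed, 2 higher and 5 lower, which is near the 68.9% of all peaks. Both higher rows were those of ATR, and all 5 lower ones were BRCA1 rows. The strongest of these, in exon 2 of NBR2 (chr17:43139834-43142464), had -0.89 with a log10 FDR of -12.9 in the authors' deposited table, and the others, in AC060780, ran from -0.62 to -0.37 in that table. Of the 4 BRCA1 rows outside other exons, 3 rose and none fell. NBR2 was at 11.6, 13.1 and 11.6 FPKM, above BRCA1 at 7.74, 7.44 and 7.16, and AC060780 at 5.02, 4.78 and 4.66, with no overlap between these 3 genes over the replicates. The median of the 11 rows was 1.71 in the authors' deposited table, the value of the 1 XPC row, with 5 BRCA1 rows below it and 5 ATR rows above. The m6A machinery list of 25 genes had 1 row, RBMX, a reader of m6A-switched RNA, at -0.72 in the pseudogene RAB28P5 (listed at 0 FPKM in all replicates) in the authors' deposited table, while its 1 other row rose. The apoptosis, TNF and NF-kB list of 35 had 1, BCL2L1, an anti-apoptotic gene, at 2.10 in ABALON in the authors' deposited table. Both other changed BCL2L1 rows fell. The haematopoietic list of 35 had none in the differential list and 6 rows in the peak list, on CEBPB, FLI1, HOXA9, LMO2 and RUNX2.

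Some further changed rows, chosen after their values were seen, joined non-coding transcripts or divergent and antisense partners. HOTAIRM1, a myeloid transcript of the HOXA cluster at 4.14, 4.05 and 4.37 FPKM, was the exon gene of a peak assigned to AC004079 (ENSG00000274396; 0.0134 FPKM) that fell by 0.42 in the authors' deposited table. JPX, an RNA of the X inactivation centre, carried one assigned to AL627389 that fell by 1.27 in the authors' deposited table. MIAT held 2 rows assigned to MIATNB, the smaller change being -1.49 in the authors' deposited table, and was itself below MIATNB in input FPKM (0.102 against 0.451). KCNQ1OT1, the imprinted antisense RNA of KCNQ1, was at 0.75, 0.756 and 0.742 FPKM while KCNQ1 was listed at 0 in all replicates. Its 1 changed row was assigned to KCNQ1 and fell by 1.18 in the authors' deposited table, with a log10 FDR of -1.33. Its other row on KCNQ1 had 1.84 in that table and missed the FDR limit. SAP30, a corepressor subunit at 9.45, 8.05 and 8.20 FPKM, carried a peak assigned to its divergent partner SAP30-DT at 1.45, 1.60 and 1.19 FPKM, which rose by 1.40 in the authors' deposited table. At NUMA1 the 3 changed rows differed in direction, from -0.13 to 0.29 in the authors' deposited table, with log10 FDR between -32.1 and -11.8. The rows at 0.225 and 0.294 in that table overlap and come from opposite passes, so they are not separate places. TTN-AS1 rows assigned to TTN fell by 1.15, 1.52 and 1.90 in the authors' deposited table.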

How the data were processed

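The labels describe 3 IP and 3 input libraries; the submitters' processing notes name fastp, HISAT2, HOMER and ChIPseeker without roles or versions. The authors' peak list gives a fold enrichment ratio, a p-value and log10 p and FDR values (treated as scores, some minus infinity) per peak. The authors' differential table gives a log2 fold change, a p-value and a log10 FDR score. Deposited FPKM values per gene were used for the 3 input libraries; 6 further FPKM columns of no sample here were not used. No source used here gives the peak caller, build, gene release or how replicates were combined.

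Rows were selected, counted and overlapped (1 base or more) with Python 3.11.15, pandas 2.3.3 and scipy 1.17.1; functions were tested on simulated data. Changed means the authors' FDR under 0.05. No new test across peaks was run, since no value per IP sample was used. Passes were split at each chromosome's largest fall in start position. Gene levels were compared as log2(FPKM + 1), either gene at 1 FPKM or more. Named peaks are the 10 highest and 10 lowest log2 fold changes and 10 highest fold enrichments (either gene at 5 FPKM or more), the 5 exon and 5 assigned genes with most rows, up to 4 changed rows per gene list, the 5 pairs furthest apart each way, and HIF1A, ATR, AGAP2, PITRM1 and CTU2. One such pair and one microRNA peak are not reported here. Members, lists and rules were chosen with earlier results of these data known. Alternatives were FDR, fold, overlap, pseudocount and filter limits and leaving out each replicate.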

Additional observations from a re-analysis of the deposited data

How the results depend on the processing

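At an FDR under 0.05 other-exon peaks were 19.3% of exon peaks in place of 19.96%, and their median fold enrichment was 4.73 in place of 5.06. Asking for a change of 2-fold or more left 235 changed peaks of 506, and 71.1% of these were lower, against 68.6%. Rows assigned to the exon gene at an overlapping position numbered 28 in place of 201 when at least 50% of both spans had to overlap. Pairs with the exon gene higher in every replicate were 571 without a filter on low FPKM, 154 with either gene at 5 FPKM or more and 233 with a 2-fold difference in every replicate, against 363, and 367 to 372 when each replicate was left out in turn. Other-exon peaks of the peak list numbered 2053 at an FDR under 0.05 with a fold enrichment of 2 or more, against 2923, and those of the differential list that overlap one of the peak list 623 when at least 50% of both spans had to overlap, against 817. Changed peaks numbered 378 at an FDR under 0.01. The share lower among changed peaks ran from 64.5% to 71.1%. No paired analysis was possible because the peak tables hold 1 value per peak with no replicate, and both genes of a pair were read in the same libraries. Read depth per peak is not known, so low values cannot be graded by it.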
